A study of Mus musculus with 69 samples.

Results

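The baseline difference between central memory (Tcm) and naive (Tnv) CD8+ T cells of wild type (WT) mice was examined in RNA-seq read counts of cells that received no added cytokine. The 2 Tcm and 2 Tnv libraries were chosen by their sample labels and make up 4 of the 69 samples of the series. Of the 24309 gene symbols in the count table, 10013 were abundant enough to be tested. WT mice carried both alleles of each STAT5 paralog (Stat5a+/+ Stat5b+/+), and the deficient mice used for comparison were germline knockouts, AAB (Stat5a-/- Stat5b+/-) and BBA (Stat5a+/- Stat5b-/-). By the study's methods the mice were 8 to 16 weeks old. CD3+ CD8α+ cells from pooled lymph nodes and spleen were sorted as CD44low CD62Lhigh (Tnv), CD44high CD62Lhigh (Tcm) or CD44high CD62Llow (effector memory, Tem). The sample labels describe every library as cultured for 12 to 16 h, whereas the methods describe cells without cytokine as processed straight after the sort. Further WT libraries came from Tnv and Tcm cultured with IL-7 or with IL-15. Each group held 2 libraries, which the study's methods describe as biological replicates, with separate mice assayed over repeated trials. The labels do not name the mouse or the trial of a library.

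Naive CD8+ T cells recirculate through lymphoid organs and have not met their antigen. Central memory cells keep the lymph node homing receptors of naive cells but are poised to divide and to make effector molecules. Their survival and slow turnover depend on IL-7 and IL-15, which signal through the common gamma chain, JAK kinases and STAT5. In mice kept without deliberate infection, many CD44high CD62Lhigh CD8+ T cells are memory-like cells that arose without foreign antigen, and the sort does not separate these from true memory cells.

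Depth on genes was 14137458 and 18563638 counts in the Tnv libraries and 12921118 and 25612758 in the Tcm libraries, and it lay between 9957938 and 25612758 in the 22 libraries used. Marker genes of B cells were present in every library, more so in Tcm. The 15 B cell markers summed to 222.5 and 659.9 CPM (counts scaled to a common normalized library total) in Tnv replicates 1 and 2 and to 787 and 1419 CPM in Tcm, with none of the 15 at 0 counts. None passed the test between Tcm and Tnv, with a median log2 fold change of 1.31, but all 15 were called higher once the replicate number was taken into the fit. Summed levels of 11 NK cell markers were 9.16 and 12.0 CPM in Tnv against 21.3 and 18.5 CPM in Tcm. In each library 3 of these markers in Tnv and 2 in Tcm were at 0. Only 3 were tested, none was called, and the replicate block called 1 higher. For the 7 of 12 listed markers of NKT, MAIT and gamma-delta T cells that had counts given, the sums were 28.2 and 33.3 CPM in Tnv and 33.2 and 40.0 CPM in Tcm. Only 2 of them were tested, none was called, and the replicate block called 1 higher. One of the 7, Blk, is also on the B cell list. Of 10 tested myeloid markers none was called, and the replicate block called 2 higher. Cd4 was at 3.89 and 4.56 CPM in Tnv and at 3.23 and 3.43 CPM in Tcm. The part of these other cells in the results was not tested. As libraries are bulk samples, fewer cells of a kind and less RNA per cell cannot be told apart in any result.

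The sort was visible in Cd44. Cd44, the adhesion receptor on which the gate rests, stood at 18.9 and 30.4 CPM in Tnv and at 176 and 128 CPM in Tcm. As the gate defines the groups, this is no finding. Il2rb, the receptor chain shared by IL-2 and IL-15 and not part of the gate, measured 198 and 191 CPM in Tnv and 795 and 728 CPM in Tcm, a log2 fold change of 1.97 (SE 0.15, edgeR quasi-likelihood test, Benjamini-Hochberg adjusted p = 0.0022). Ccr7, the receptor that guides cells into lymph nodes, read 528 and 486 CPM in Tnv and 427 and 381 CPM in Tcm, and did not pass the test (log2 fold change -0.33, edgeR adjusted p = 0.33). In the Tem libraries Ccr7 was at 237 and 282 CPM, below every Tnv and Tcm library. The coreceptor genes Cd8a and Cd8b1 had log2 fold changes of -0.08 and -0.09 and were not called.

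Tcm differed from Tnv mostly by genes that were higher. Calls took a change over 1.5-fold and an adjusted p under 0.05 in edgeR, in a fit without the replicate number. In this fit 278 genes (2.78% of those tested) passed, 230 higher (2.3%) and 48 lower (0.479%) in Tcm. The median log2 fold change over all tested genes was 0.01. Called higher genes had a median log2 fold change of 1.70, with 93 over 4-fold and 30 over 16-fold, and started from a low level, at a median of 6.25 CPM in Tnv and 24.1 CPM in Tcm. Called lower genes moved less, with a median of -0.97, 1 gene over 4-fold and 25 of 48 under 2-fold. They were abundant in Tnv, at a median of 72.8 CPM against 31.7 CPM in Tcm. The filter kept a gene that was above its threshold in any of the 6 libraries, so a higher gene could pass through Tcm or Tem alone. These sizes and levels can follow in part from that rule. With no filter 645 genes were called higher and 228 lower. Among the called genes 222 of the higher and 46 of the lower ones were annotated as protein coding. The libraries of the groups did not overlap for any of the 278 called genes, nor for 43.9% of all genes tested.

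**Figure D1:**
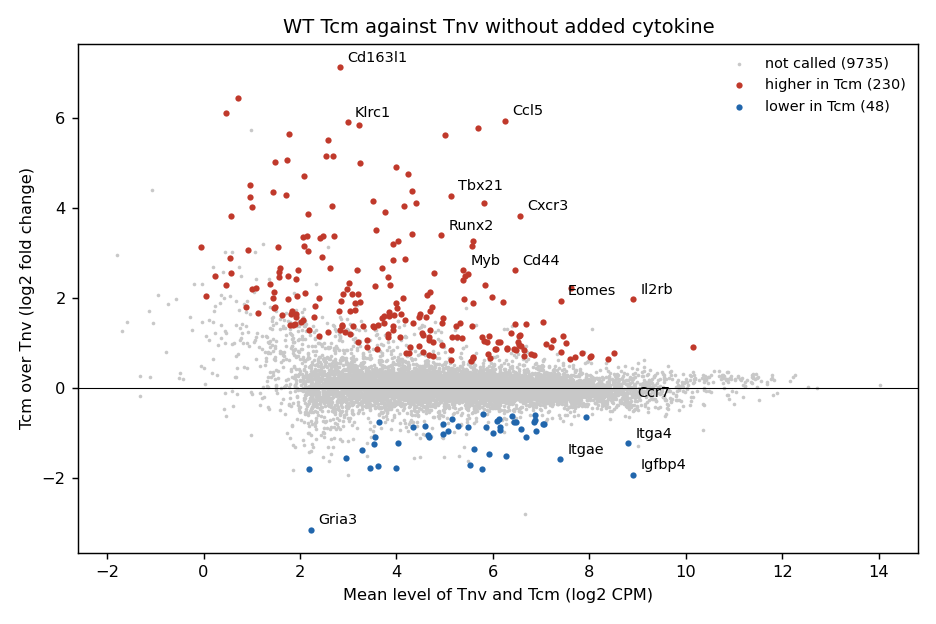
Log2 fold change of Tcm over Tnv (vertical axis) against the mean level in log2 CPM (horizontal axis) for the 10013 genes tested in WT cells without cytokine, 1 point a gene, with the 230 called higher genes in red, the 48 called lower genes in blue and the others in grey. Red points reach a log2 fold change of 7.12 (Cd163l1), whereas the lowest blue point is Gria3 at -3.16.

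With only 2 libraries a group, the number of calls depended on single libraries and on the replicate number. Same-numbered libraries deviated together in all 3 pairs of WT states, and a fit with the replicate number as a block called 782 genes (7.81%), 568 higher (5.67%) and 214 lower (2.14%), among them all 278 of the fit without it. Leaving out Tnv replicate 1 left 69 calls and leaving out Tnv replicate 2 left 88, while leaving out Tcm replicate 2 gave 559 and leaving out Tcm replicate 1 gave 202. Of the 78 called genes named here, 30 were called in each of these 4 fits. Among them were Tbx21, Eomes, Runx2, Myb, Id3, Il2rb, Il18rap, Ccl4, Ccl5, Xcl1, Gzma, Gzmm, Klrc1, Slamf7, Cxcr3, Cxcr5, Ccr10, Cd44, Adora2a, Entpd1, Tnfsf14, Bbc3, Myo1f, Stmn1, Samd3, Dapk2, Cd163l1, 5830411N06Rik and Lrrc75b. The other 48 lost their call in at least 1 fit, Id2 and Rsad2 in all 4, and 44 lost it without Tnv replicate 1.

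Some transcription factors of effector and memory differentiation differed between the states. Of 24 tested members of this list, 4 rose (Tbx21, Runx2, Eomes and Hopx), 1 fell (Id2) and 19 were not called. Of all tested genes 2.3% were called higher and 0.479% lower. The median log2 fold change of the list was 0.42. Tbx21, which encodes T-bet, the T-box factor of cytotoxic cells (chr11:97098071-97115331, minus strand, GRCm38), stood at 3.32 and 3.57 CPM in Tnv and at 70.3 and 62.9 CPM in Tcm, a log2 fold change of 4.27 (SE 0.16, edgeR adjusted p = 0.00031). Runx2, a Runt family factor, stood at 4.47 and 6.04 CPM in Tnv and at 54.7 and 56.5 CPM in Tcm, a log2 fold change of 3.39 (SE 0.17, edgeR adjusted p = 0.00071). The related Runx1 and Runx3 had log2 fold changes of -0.12 and 0.01 and were not called. Eomes, the second T-box factor of CD8+ T cells, measured 67.9 and 72.9 CPM in Tnv and 275 and 264 CPM in Tcm, a log2 fold change of 1.93 (SE 0.10, edgeR adjusted p = 0.00084). Replicates of these genes lay close together and far from the other state.

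Hopx, which encodes a small homeodomain protein, rose by a log2 fold change of 1.89, from 31.1 and 31.3 CPM to 134.5 and 98.0 CPM. Id2, an inhibitor of E proteins, fell from 166 and 171 CPM in Tnv to 103 and 88.5 CPM in Tcm (log2 fold change -0.82, edgeR adjusted p = 0.046) and stood at 241 and 183 CPM in Tem. Its paralog Id3, which serves long-lived memory, rose from 15.7 and 16.3 CPM to 44.9 and 48.7 CPM (log2 fold change 1.55, SE 0.12, edgeR adjusted p = 0.0024). The opposite directions of Id2 and Id3 held in Tcm against Tnv of AAB mice, at -1.02 and 0.92, and of BBA mice, at -0.77 and 1.20, with all 4 values called. With the replicate block the count of this list was 9 higher and 1 lower, beside 5.67% and 2.14% of all tested genes. The added genes were Zbtb32, Bhlhe40, Irf8, Zeb2 and Prdm1. Irf8, for example, stood at 14.9 and 21.4 CPM in Tnv and at 32.8 and 52.6 CPM in Tcm, and its adjusted p in edgeR went from 0.10 to 5.9e-06 with the block. Irf8 is also a B cell and myeloid gene, and the summed B cell markers were ordered over these 4 libraries in the same way.

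Among factors of the naive and stem-like state Id3 and Myb rose. The other 16 of 18 tested genes were not called, and the median log2 fold change was -0.08. Of all tested genes 2.3% were called higher. Myb, which restrains terminal differentiation in memory cells, rose from 12.0 and 11.4 CPM to 70.4 and 72.8 CPM (log2 fold change 2.61, SE 0.12, edgeR adjusted p = 0.00071). Tcf7, which encodes TCF-1, had a log2 fold change of -0.04 and was not called. Its partner Lef1 stood at 519 and 512 CPM in Tnv and at 318 and 354 CPM in Tcm, and passed only in the blocked fit (log2 fold change -0.62, edgeR adjusted p = 0.13, and 0.0019 with the replicate block). Bach2 and Sox4 showed the same pattern, at -0.62 and -0.92. The replicate block gave 3 higher and 3 lower genes in this list, beside 7.81% of all tested genes called in that fit. Foxo1, Foxp1, Klf2, Satb1 and Ets1 lay between -0.22 and 0 on the log2 scale and were not called in either fit.

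**Figure D2:**
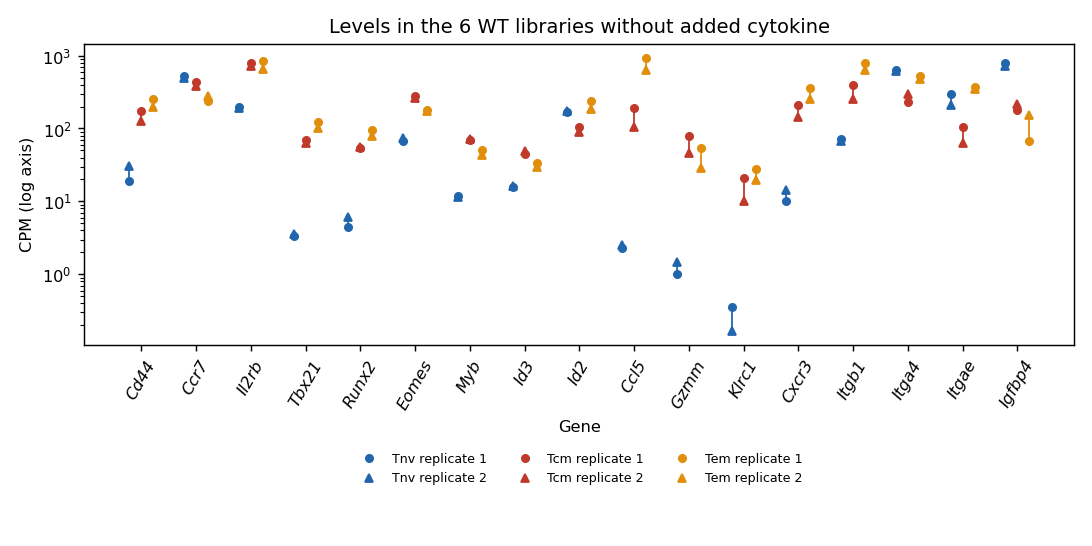
Level in CPM (log axis) of 17 genes in the 6 WT libraries without added cytokine, with circles for replicate 1 and triangles for replicate 2, and Tnv in blue, Tcm in red and Tem in orange. Tbx21, Runx2, Ccl5, Gzmm and Klrc1 have both Tcm points far above both Tnv points, whereas the points of Ccr7 lie close together in these states.

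T-box and Runt family factors were among the called genes. The 250 bases before each listed gene start were therefore read from RefSeq promoters (GRCm38.p6). They were searched for the short motifs of these factors on both strands. Promoters were found for 211 of the 278 called genes and for 56 of the 78 named ones. Each listed start gave its own window, with 233 windows from 179 called higher genes and 37 from 32 called lower genes. The shares are thus of windows and not of genes, and windows of the same gene may share a match. The T-box letters GGTGTGA, or TCACACC on the other strand, were in 13 of 233 windows of called higher genes (5.58%), against 2.74% of windows of all tested genes and 3.33% of all promoters. The RUNX letters TGTGGTT, or AACCACA, were in 14 of these 233 windows (6.01%), against 3.34% and 4.4%. Windows of called lower genes held them in 2 (5.41%) and 1 (2.7%) of 37 cases. The T-box share was thus similar in both directions, with few windows for the lower genes. The TCF letters CTTTGAT, or ATCAAAG, were in 0.429% of called higher windows against 2.16% of tested genes, and the GAS letters TTCNNNGAA, bound by STAT factors, were in 4.72% against 6.09%. These shares are descriptions of letters and not of binding. Stretches of named genes are shown for the place of the match, in capitals, 5′ to 3′ on the gene's own strand. They are Xcl1 (chr1:164935674-164935772, minus strand, T-box and RUNX), Samd3 (chr10:26229662-26229706, plus strand, T-box), Myb (chr10:21161198-21161234, minus strand, T-box), Gzma (chr13:113100996-113101062, minus strand, RUNX), Klrk1 (chr6:129623957-129624023, minus strand, RUNX), Runx2 (chr17:44814672-44814738, minus strand, RUNX) and the called lower gene Itga4 (chr2:79255231-79255297, plus strand, T-box).
Xcl1: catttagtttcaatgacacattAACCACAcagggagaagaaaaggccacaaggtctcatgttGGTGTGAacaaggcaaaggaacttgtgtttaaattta
Samd3: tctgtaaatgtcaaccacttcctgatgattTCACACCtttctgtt
Myb: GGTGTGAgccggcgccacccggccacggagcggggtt
Gzma: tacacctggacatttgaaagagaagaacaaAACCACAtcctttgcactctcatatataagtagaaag
Klrk1: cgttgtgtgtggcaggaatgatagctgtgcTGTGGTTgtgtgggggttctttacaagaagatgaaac
Runx2: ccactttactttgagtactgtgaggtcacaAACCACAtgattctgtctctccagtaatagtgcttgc
Itga4: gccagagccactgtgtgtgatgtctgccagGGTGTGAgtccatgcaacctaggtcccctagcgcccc

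Effector molecules were higher in Tcm at the level of chemokines and some granzymes. Of 23 tested genes 5 rose, beside 2.3% of all tested genes, none fell, and the median log2 fold change was 0.74. With the replicate block 12 were called higher, beside 5.67% of all tested genes. Ccl5, a chemokine stored by memory CD8+ T cells, stood at 2.31 and 2.52 CPM in Tnv, at 193 and 104.5 CPM in Tcm and at 935 and 637.5 CPM in Tem (log2 fold change of Tcm over Tnv 5.93, SE 0.41, edgeR adjusted p = 0.0019). Xcl1, a chemokine that draws cross-presenting dendritic cells and whose promoter stretch holds both motifs above, stood at 0.65 and 0.49 CPM in Tnv and at 24.4 and 12.5 CPM in Tcm (log2 fold change 5.0, edgeR adjusted p = 0.0049). Ccl4 had 0 and 10 counts in Tnv and 106 and 201 in Tcm. Its ratio of Tcm to Tnv over the summed libraries was 26.1, with a 95% interval of 14.0 to 54.9 that covers counting error only. Reads of Ccl4 and its paralog Ccl3 can be split by counting, and Ccl3 itself was not called.

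Gzmm, granzyme M, rose from 1.01 and 1.48 CPM in Tnv to 78.7 and 46.8 CPM in Tcm (log2 fold change 5.61, SE 0.49, edgeR adjusted p = 0.0032). Gzma, granzyme A, rose from 0.72 and 1.76 CPM to 10.7 and 8.67 CPM (log2 fold change 2.90, edgeR adjusted p = 0.0075) and was at 44.5 and 49.9 CPM in Tem. Granzyme B did not pass, at a log2 fold change of 1.0. The perforin gene Prf1 stood at 111 and 97.4 CPM in Tnv and at 175 and 149 CPM in Tcm (log2 fold change 0.64, edgeR adjusted p = 0.058, and 0.00019 with the replicate block). Ifng differed more between the Tnv replicates, at 7.86 and 0.49 CPM, than between Tcm replicate 1, at 10.7 CPM, and Tnv replicate 1, and was not called without the block (edgeR adjusted p = 0.37, and 0.028 with it). Tnf and Lta had log2 fold changes of -0.17 and -0.18.

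Receptors shared with NK cells followed. Of 26 genes on the list 13 were abundant enough to be tested. Of these 4 rose, beside 2.3% of all tested genes, and none fell, with a median log2 fold change of 1.07. Under the replicate block 9 were called higher, beside 5.67% of all tested genes. Klrc1, the gene of the inhibitory receptor NKG2A, had 5 and 3 counts in Tnv and 262 and 258 in Tcm, a ratio of 55.2 (95% counting interval 27.8 to 129). Klra3, of the Ly49 family, had 1 and 3 counts against 108 and 117, a ratio of 47.8 (18.4 to 177). Both have near-identical paralogs, so reads may have been split or lost in counting. Klrk1, the gene of the activating receptor NKG2D, rose from 11.7 and 9.93 CPM to 39.1 and 28.7 CPM (log2 fold change 1.65, edgeR adjusted p = 0.0075). Slamf7 rose from 2.60 and 3.51 CPM to 34.9 and 24.4 CPM (log2 fold change 3.25, edgeR adjusted p = 0.0035). Klrd1, the CD94 partner of NKG2A, had a log2 fold change of 0.42 and was not called. The NK cell gene Ncr1 had 1 and 10 counts in Tnv and 11 and 42 in Tcm and was too low to be tested.

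Genes of trafficking moved in both directions. Of 31 tested chemokine receptors, sphingosine phosphate receptors and integrins 7 rose and 2 fell, with a median log2 fold change of 0.18. Of all tested genes 2.3% were called higher and 0.479% lower. Cxcr3, the receptor for interferon-induced chemokines, stood at 10.2 and 14.5 CPM in Tnv and at 209 and 143 CPM in Tcm (log2 fold change 3.82, SE 0.29, edgeR adjusted p = 0.0022). Ccr2, a receptor of inflammatory chemokines, rose from 1.59 and 2.20 CPM to 28.4 and 15.4 CPM. For both genes the lowest Tcm library was above the highest Tnv library. Ccr10 had 1 and 4 counts in Tnv and 57 and 75 in Tcm, a ratio of 22.4 (95% counting interval 9.37 to 70.2), and S1pr5, which lets cells leave tissue, had 1 and 12 against 45 and 81, a ratio of 8.24 (4.65 to 15.9). Itgb1, the integrin beta 1 chain, rose from 72.0 and 66.4 CPM to 396 and 251 CPM (log2 fold change 2.22, edgeR adjusted p = 0.0063). Cxcr5, the receptor for the chemokine of B cell follicles, rose from 8.73 and 17.5 CPM to 66.3 and 73.2 CPM (log2 fold change 2.40, edgeR adjusted p = 0.0090). Cxcr5 is also expressed by B cells, whose summed markers are given above, and their part in this difference was not tested.

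The genes that fell in this list were integrin alpha chains. Itga4, the alpha 4 chain, stood at 629 and 622 CPM in Tnv and at 230 and 301 CPM in Tcm (log2 fold change -1.24, SE 0.15, edgeR adjusted p = 0.010). Itgae, which encodes CD103, stood at 292 and 211 CPM in Tnv and at 105 and 63.5 CPM in Tcm (log2 fold change -1.59, edgeR adjusted p = 0.028). Both were higher again in Tem, Itga4 at 525 and 472 CPM and Itgae at 372 and 345 CPM. Ccr9, the gut-homing receptor, read 186 and 169 CPM in Tnv and 21.6 and 28.5 CPM in Tcm and passed only with the replicate block (log2 fold change -2.81, edgeR adjusted p = 0.063, and 4.7e-05 with the block). S1pr1, Itgb7 and Itga6 had log2 fold changes of -0.38, -0.50 and -0.47 and were called in neither fit.

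The list of cytokine receptors was chosen with earlier results of these data known, so its share of calls is a description only. Of all tested genes 2.3% were called higher and 0.479% lower. Of 25 tested cytokine receptors 4 rose (Il2rb, Il18rap, Il10ra and Ifngr1), 1 fell (Tgfbr3) and 20 were not called, with a median log2 fold change of 0.11. The replicate block called 8 higher, beside 5.67% of all tested genes. The IL-7 receptor gene Il7r, the common gamma chain gene Il2rg and Il2ra had log2 fold changes of 0.11, -0.14 and 0.35 and were not called, unlike Il2rb. Il15ra stood at 9.88 and 10.98 CPM in Tnv and at 13.6 and 17.7 CPM in Tcm and passed only with the replicate block (log2 fold change 0.59, edgeR adjusted p = 0.16, and 0.018 with the block). Il18rap, a chain of the IL-18 receptor, rose from 9.52 and 8.73 CPM to 98.1 and 76.7 CPM (log2 fold change 3.26, SE 0.23, edgeR adjusted p = 0.0020). Its partner chain Il18r1 was already at 136 and 122 CPM in Tnv, against 222 and 175.5 CPM in Tcm, and was not called without the block. Tgfbr3, the TGF-β coreceptor betaglycan, fell from 68.9 and 71.2 CPM to 19.6 and 34.3 CPM (log2 fold change -1.36, edgeR adjusted p = 0.038). The interferon gamma receptor chains took opposite signs. Ifngr1 rose by a log2 fold change of 0.68 (edgeR adjusted p = 0.029), and Ifngr2, at 48.1 and 46.2 CPM in Tnv and 14.4 and 17.7 CPM in Tcm, was called lower with the replicate block alone (log2 fold change -1.55, edgeR adjusted p = 0.13, and 0.00042 with the block).

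Among 21 tested JAK kinases, STAT factors and their inhibitors the single call was Stat4, the factor downstream of IL-12, which rose from 125.5 and 125 CPM to 231 and 202 CPM (log2 fold change 0.79, edgeR adjusted p = 0.040). The median of the list was -0.08, and of all tested genes 2.78% were called. Stat5a stood at 101 and 88.5 CPM in Tnv and at 70.4 and 77.5 CPM in Tcm, and Stat5b at 251 and 242 CPM in Tnv and at 166 and 204 CPM in Tcm. The groups did not overlap for either gene, but neither passed (log2 fold changes -0.36 and -0.41, edgeR adjusted p = 0.29 and 0.21, below 1.5-fold also with the block). The STAT5 target gene Cish had a log2 fold change of -0.50 and was not called.

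Among inhibitory checkpoint genes those called were Adora2a, Entpd1 and Cd101. Of 14 tested genes these 3 rose, beside 2.3% of all tested genes, none fell, and the median log2 fold change was 0.81. Under the replicate block 7 were called higher, beside 5.67% of all tested genes. Adora2a, an adenosine receptor, rose from 21.7 and 20.9 CPM to 55.3 and 60.5 CPM (log2 fold change 1.44, SE 0.11, edgeR adjusted p = 0.0021). Entpd1, which encodes CD39, an enzyme that degrades extracellular ATP, rose from 2.81 and 2.80 CPM to 13.2 and 12.6 CPM (log2 fold change 2.20, edgeR adjusted p = 0.0022). Nt5e, whose product CD73 completes adenosine production, had a log2 fold change of 0.25 and was not called. Cd101 rose by 1.19 on the log2 scale. Lag3 stood at 1.66 and 1.65 CPM in Tnv and at 11.5 and 5.28 CPM in Tcm and passed only with the block (edgeR adjusted p = 0.061, and 3.6e-05 with the block). Pdcd1 and Tox had log2 fold changes of 0.77 and -0.17 and were called in neither fit.

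Of 18 tested TNF family and costimulatory genes 1 rose, Tnfsf14, which encodes the ligand LIGHT (3.32 and 2.74 CPM in Tnv, 33.1 and 22.1 CPM in Tcm, log2 fold change 3.18, edgeR adjusted p = 0.0032). Tnfrsf14, its receptor, read 99.7 and 85.1 CPM in Tnv and 51.7 and 63.5 CPM in Tcm and was called lower with the replicate block alone (edgeR adjusted p = 0.097, and 0.0019 with the block). Of 28 tested genes of the T cell receptor complex and its kinases 1 rose, Tec (log2 fold change 1.13, edgeR adjusted p = 0.010), a share near the 2.78% of all tested genes, and the median of the list was 0.04. In the BCL-2 family 2 of 11 tested genes rose, beside 2.3% of all tested genes, and these 2 act in opposite ways. Bbc3, which encodes the death-promoting PUMA, rose from 25.7 and 25.1 CPM to 88.8 and 114 CPM (log2 fold change 2.0, edgeR adjusted p = 0.0021). Bcl2l1, the gene of the survival protein BCL-XL, rose from 17.1 and 14.9 CPM to 38.6 and 30.8 CPM (log2 fold change 1.12, edgeR adjusted p = 0.026). Bcl2, Mcl1 and Bcl2l11 had log2 fold changes of 0.09, -0.02 and 0.26 and were not called.

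Some genes of cell division were higher in Tcm. Of 28 tested mitosis genes 5 rose, beside 2.3% of all tested genes, and none fell. The median log2 fold change was 1.10, with 26 of 28 above 0. Under the replicate block 15 were called higher, beside 5.67% of all tested genes. The count of 5 was 3, 13, 2 and 1 without Tcm replicate 1, Tcm replicate 2, Tnv replicate 1 and Tnv replicate 2. The summed level of the list, at 1124 and 1104 CPM in Tnv and at 1357 and 1115 CPM in Tcm, overlapped between the states. Mki67, the proliferation marker, stood at 6.92 and 7.08 CPM in Tnv, at 34.0 and 22.1 CPM in Tcm and at 147 and 125 CPM in Tem (log2 fold change of Tcm over Tnv 1.99, edgeR adjusted p = 0.0079). Top2a, a topoisomerase of dividing cells, stood at 8.22 and 6.37 CPM in Tnv, at 28.9 and 21.3 CPM in Tcm and at 84.5 and 86.5 CPM in Tem. The order Tnv below Tcm below Tem was the same in every library of both genes. Stmn1, Aurkb and Kif11 were the other calls, at log2 fold changes of 2.12, 2.28 and 1.39. Of 28 tested genes of DNA replication 4 rose (Rrm2, Tk1, Cdc6 and Uhrf1, at log2 fold changes of 2.0, 1.70, 1.66 and 1.13), with a median of 0.36, and in the same order of libraries left out the count was 2, 8, 0 and 1. The replicative helicase genes Mcm2 to Mcm7 lay between 0.11 and 0.51 and were not called.

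Calls among metabolic genes were about as rare as among all tested genes (2.78%). None of 27 tested fatty acid oxidation genes was called, with a median log2 fold change of 0.07, and of 23 tested glycolysis genes only Ldhb was, which fell. The replicate block called 1 gene higher in each of these lists. Ldhb, a lactate dehydrogenase chain, stood at 13.1 and 9.93 CPM in Tnv and at 4.76 and 3.19 CPM in Tcm (log2 fold change -1.55, edgeR adjusted p = 0.038), whereas the other chain, Ldha, had a log2 fold change of 0.11 and was not called. Of 30 tested genes of cholesterol and fatty acid synthesis 26 had a log2 fold change of 0 or below, with a median of -0.18. Of these 1 was called lower, and the replicate block called 4 lower and Scd1, a fatty acid desaturase, higher. Sqle and Cyp51, both of cholesterol synthesis, were called lower with the block alone, at log2 fold changes of -1.07 and -0.71 (edgeR adjusted p = 0.062 for each, and 0.000985 and 0.0020 with the block). All 69 tested cytosolic ribosomal protein genes had a log2 fold change above 0, with a median of 0.23, and none was called in either fit. That direction rests on Tcm replicate 1, since the median was -0.03 without it and 0.43 without Tcm replicate 2.

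Other lists held from 0 to 4 calls, beside 2.3% of all tested genes called higher without the replicate block and 5.67% with it. In the list of S100, annexin, galectin and cytoskeletal genes 4 of 25 rose, S100a6, Myo1f, Anxa2 and Ahnak, and 9 with the replicate block. S100a6 stood at 1.30 and 1.98 CPM in Tnv, at 35.7 and 15.3 CPM in Tcm and at 176.5 and 108 CPM in Tem (log2 fold change of Tcm over Tnv 3.89, edgeR adjusted p = 0.016). Of 16 tested glycosyltransferases that build O-glycans and selectin ligands 3 rose, Chst2 (log2 fold change 2.65), St3gal6 (1.88) and St6galnac4 (0.65), whereas Gcnt1 and Fut7 passed only with the block. Among 31 tested interferon-stimulated genes Mx1 and Rsad2 rose, at log2 fold changes of 1.38 and 1.41, and the median was 0.11. Rsad2 lost its call whichever library was left out, as given above. In Tcm against Tnv of AAB and of BBA, none of 32 tested genes of this list was called higher, and 1 was called lower in AAB. The replicate block called 4 of this list higher. Of 29 tested immediate early genes, which respond to handling as well as to receptor signals, Rgs1 rose by 1.44 on the log2 scale and Fos, Jun and Egr1 were at -0.36, -0.44 and -0.61 and not called, save Egr1 with the block. None of 13 tested heat shock genes was called. Of 7 tested markers of the CD4 lineage 1 rose, Zbtb7b, the factor ThPOK, and the replicate block called 4 higher. Zbtb7b stood at 1.95 and 4.94 CPM in Tnv against 13.5 and 16.5 CPM in Tcm (log2 fold change 2.09, edgeR adjusted p = 0.036). Foxp3 had a log2 fold change of -0.50 and was not called.

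**Figure D3:**
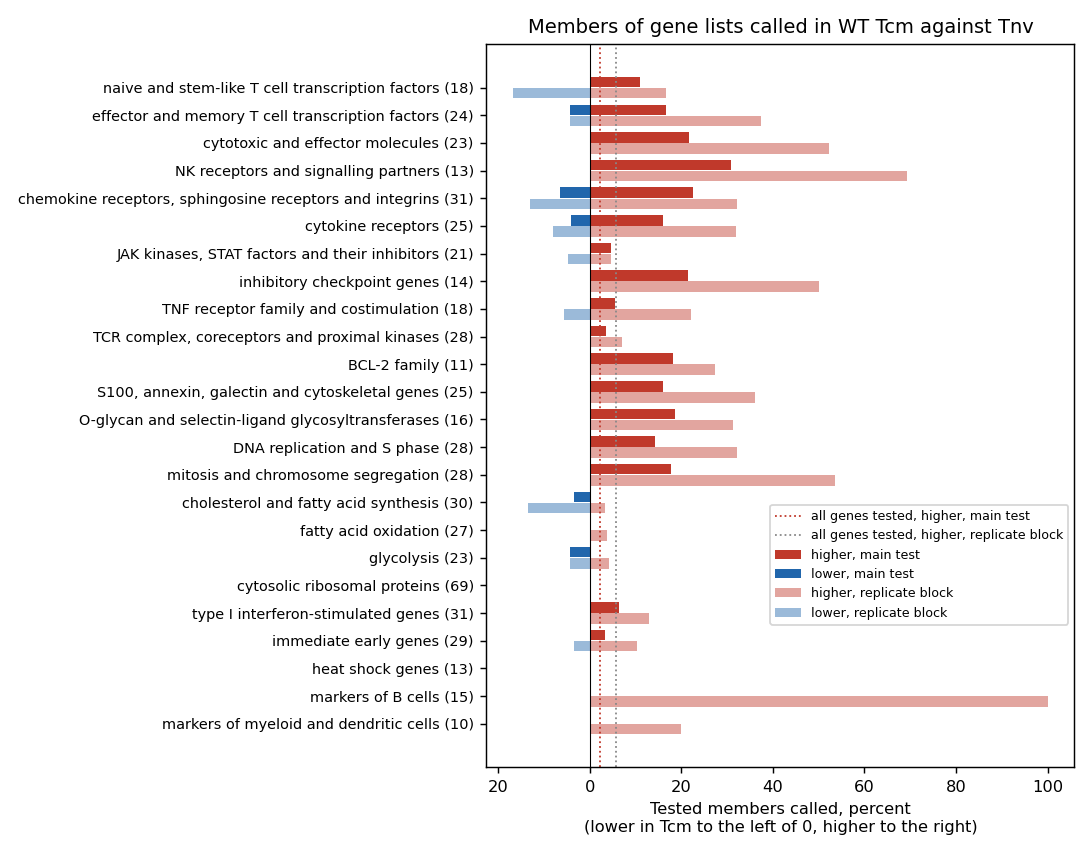
Share in percent of the tested members of each gene list (number tested in parentheses) that were called in WT Tcm against Tnv, higher to the right of 0 and lower to the left, with dark bars for the fit without and light bars for the fit with the replicate block, and dotted lines for the shares of all tested genes called higher. NK receptors reach 4 of 13 without the block, and B cell markers go from 0 of 15 without the block to 15 of 15 with it.

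The largest differences also lay in genes outside these lists. Among called higher genes averaging 50 or more normalized counts, Cd163l1, which encodes a scavenger receptor of the cysteine-rich family, led. Cd163l1 had 2 and 1 counts in Tnv and 182 and 343 in Tcm, a ratio of 149 (95% counting interval 50.6 to 723). It lies at chr7:140218267-140231145 (plus strand, GRCm38). Downstream on the same strand, 5830411N06Rik (chr7:140247284-140300736) had 6 and 4 counts in Tnv and 233 and 459 in Tcm. Samd3, whose product has a sterile alpha motif, rose from 1.30 and 2.31 CPM to 112 and 90.3 CPM (log2 fold change 5.77, SE 0.35, edgeR adjusted p = 0.0014). Dapk2, a calmodulin-dependent death-associated kinase, had 3 and 5 counts against 172 and 241, a ratio of 43.9 (22.1 to 102). Ctla2b, a cysteine protease inhibitor with a close paralog, and Kcnf1, a potassium channel subunit, both had a log2 fold change of 5.14.

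At the lower end, several of the genes named by the same rule encode surface receptors. Gria3, a subunit of AMPA glutamate receptors, fell the most, from 10.5 and 6.42 CPM to 1.05 and 0.87 CPM (log2 fold change -3.16, SE 0.45, edgeR adjusted p = 0.017). Igfbp4, which binds insulin-like growth factors, fell from 803 and 725 CPM to 180 and 219 CPM (log2 fold change -1.94, edgeR adjusted p = 0.040) and was at 67.3 and 154 CPM in Tem. Lrrc75b fell from 90.9 and 80.7 CPM to 21.2 and 27.2 CPM (log2 fold change -1.82, SE 0.20, edgeR adjusted p = 0.0072) and was the one lower gene named here that kept its call whichever library was left out. Ntrk3, the neurotrophin receptor TrkC, fell from 18.3 and 15.7 CPM to 5.32 and 4.57 CPM, and Acvrl1, a receptor of the TGF-β superfamily, from 21.5 and 16.1 CPM to 6.61 and 4.85 CPM. Gpr34, Xkrx, Ggt1 and Rgcc had log2 fold changes of -1.81, -1.78, -1.73 and -1.48, and Itgae and Ldhb, given above, met the rule as well.

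The Tem libraries placed Tcm between the other states for some genes and apart for others. They entered the comparison through the shared spread, the scaling and the filter, which kept genes above the threshold in any library. A fit of the 4 Tcm and Tnv libraries alone called 197 genes, 175 of them among the 278. Of the 230 genes called higher in Tcm, the Tem mean lay above the Tcm mean for 136 and between the means of Tnv and Tcm for 94, and never below Tnv. Ccl5, S100a6, Mki67 and Cxcr3 were of the first kind. Myb, Eomes, Id3, Samd3, Gzmm and Cxcr5 were of the second, with Eomes for example at 181 and 171 CPM in Tem. Of the 48 genes called lower, the Tem mean lay below the Tcm mean for 17, between Tcm and Tnv for 27 and above Tnv for 4. No test was made of these orders.

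The same contrast was read in AAB and BBA cells, which share no library with the WT pair. Stat5a was at 2.0 to 3.23 CPM in the AAB libraries and at 39.8 to 46.4 CPM in the BBA libraries, and Stat5b at 83.2 to 117 CPM and at 47.2 to 77.6 CPM, scaled in a fit of 12 libraries. Counts per gene do not show which part of a gene was deleted, and both genes were lower than in every WT library without cytokine in each strain. In AAB 424 of 10236 tested genes were called (4.14%), 299 higher (2.92%) and 125 lower (1.22%), and in BBA 282 were (2.75%), 227 higher (2.22%) and 55 lower (0.537%). Of the 230 WT higher genes 219 could be tested there. In AAB all 219 had the WT direction and 169 were called (77.2%), and in BBA 216 had it and 132 were called (60.3%). Of the 48 WT lower genes 40 were called lower in AAB (83.3%) and 20 in BBA (41.7%), and none of the WT genes was called in the opposite direction in either. Tbx21 had log2 fold changes of 3.81 in AAB and 2.93 in BBA, Runx2 of 3.02 and 1.95, and Il2rb of 2.29 and 1.93, all called. Itga4 was called lower in AAB (-1.42) but not in BBA (-0.73). Summed B cell markers were also higher in each Tcm library than in the same-numbered Tnv library of these strains. In AAB they were at 269 and 679 CPM in Tnv and at 505 and 1331 CPM in Tcm. In BBA they were at 380 and 493 CPM in Tnv and at 1020 and 1550 CPM in Tcm. The part of B cells in the shared direction was not tested.

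No gene passed the test for a different contrast in AAB than in WT or in BBA than in WT by edgeR, with 114 and 214 genes at an unadjusted p under 0.05 and 2 and 10 calls by DESeq2. The largest gap among the named genes was at Cd163l1 and 5830411N06Rik, which lie near each other on chromosome 7. Cd163l1 stood at 0.10 and 0.44 CPM in BBA Tnv and at 0.59 and 0.47 CPM in BBA Tcm, and in AAB at 0.064 and 0.50 CPM in Tnv against 2.65 and 4.43 CPM in Tcm. For 5830411N06Rik the BBA libraries held 0.10 to 0.77 CPM in both states, and AAB Tcm held 19.3 and 14.9 CPM. The differences of the BBA from the WT contrast were -6.35 and -5.10 on the log2 scale and were not called (edgeR adjusted p = 0.64 and 0.28).

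**Figure D4:**
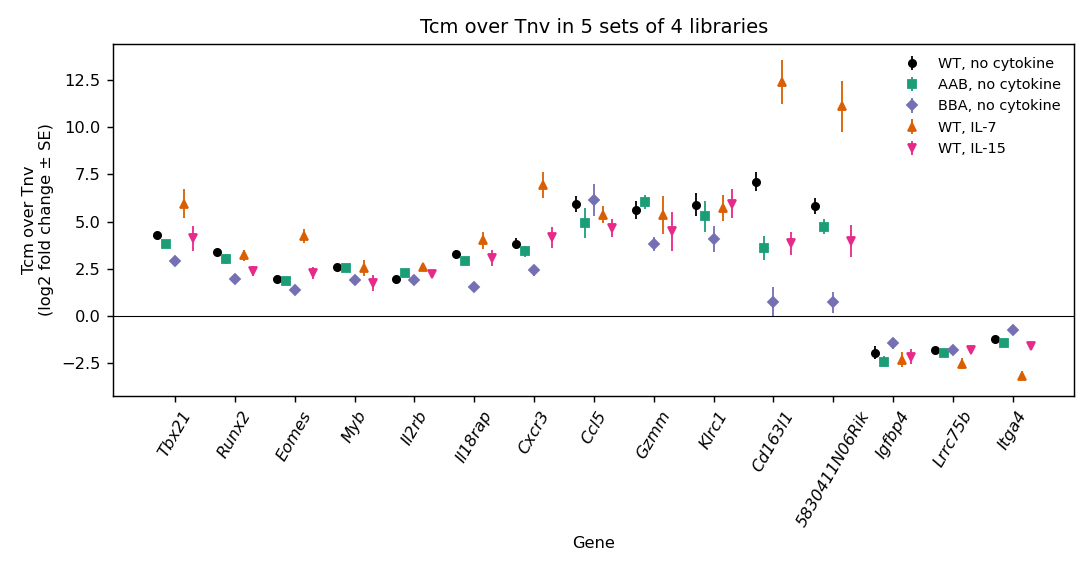
Log2 fold change of Tcm over Tnv with its standard error (bars) for 15 named genes in 5 sets of 4 libraries, WT, AAB and BBA without cytokine and WT with IL-7 or IL-15. Tbx21 to Klrc1 lie above 0 in every set and Igfbp4 to Itga4 below it, whereas Cd163l1 and 5830411N06Rik are at 0.76 and 0.73 in BBA.

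The WT contrast was also present in cells cultured with cytokine. With IL-7 181 of 222 tested WT higher genes were called higher (81.5%) and 35 of 48 lower genes lower (72.9%), beside 2459 calls in all (23.7% of 10368 genes, 12.9% higher and 10.8% lower). With IL-15 101 of 222 (45.5%) and 27 of 48 (56.3%) were, beside 680 calls in all (6.56%, 4.31% higher and 2.25% lower). For Tbx21 the log2 fold changes were 5.93 (IL-7) and 4.11 (IL-15), and for Klrc1 they were 5.71 and 5.95. In each culture 1 gene was called against its WT direction, Rgs1 with IL-7 (log2 fold change 1.44 without cytokine and -1.69 with it) and Gbp6, a guanylate-binding protein gene named after its values were seen, with IL-15 (-0.87 and 0.90). Tcm over Tnv differed from the value without cytokine for 106 genes with IL-7 (1.02%, 56 upward, 0.54%, and 50 downward, 0.482%) by edgeR, and for 0 with IL-15 (787 at an unadjusted p under 0.05, and 100 by DESeq2). Leaving out single libraries gave 16 to 1987 such genes with IL-7.

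Other properties of the cultured libraries moved with these results. The 4 WT IL-7 libraries had 26 to 56 counts of Xist and 1453 to 3360 of the Y-linked Ddx3y, whereas the WT, AAB and BBA libraries without cytokine and the WT IL-15 libraries had 9471 to 30069 and 0 to 2. The IL-7 cells were thus from male and the others from female mice, and sex and IL-7 cannot be told apart. Myeloid markers summed to 752 and 423 CPM in Tcm with IL-7 against 40.2 and 39.4 CPM in Tnv with IL-7, where 8 and 9 of these markers were at 0. Tnv replicate 2 with IL-15 held CD4 lineage markers at 682 CPM, with Cd4 itself at 233 CPM against 6.37 CPM in replicate 1. Leaving out any single WT library with IL-15, this one or another, lowered the number of calls with IL-15. The part of these properties in the culture results was not tested.

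**Figure D5:**
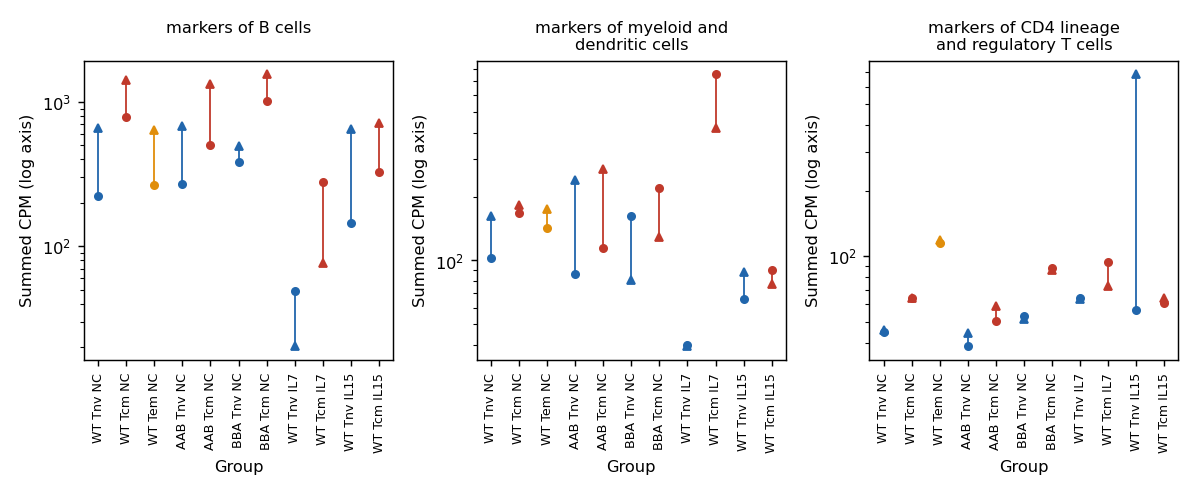
Summed CPM (log axes) of the markers of B cells, of myeloid and dendritic cells and of CD4 lineage and regulatory T cells in each library of 11 groups, with circles for replicate 1 and triangles for replicate 2, and Tnv in blue, Tcm in red and Tem in orange. B cell markers are at 222.5 and 659.9 CPM in WT Tnv and at 787 and 1419 CPM in WT Tcm without cytokine (NC), and the highest CD4 lineage point is Tnv replicate 2 with IL-15 at 682 CPM.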

How the data were processed

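Counts of reads per gene symbol were deposited by the authors without normalization, 1 table for all CD8+ libraries. By the study's methods 50 base single-end reads of poly(A)+ RNA were aligned with tophat2 2.1.1 and counted with htseq-count 2.0.3. The methods name mm10 as the build and the submitters' processing notes mm9, with TopHat2, HTSeq and Cufflinks. Which annotation was counted, and whether strand was used, is not given in the sources used here, so overlapping and antisense genes and paralogs are uncertain.

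The study used HTSFilter and edgeR, and so counts were tested by the quasi-likelihood functions (older form) of edgeR 4.0.16 in R 4.3.3 after TMM scaling. The HTSFilter rule was written anew. It tries 100 thresholds between 1 and 200 normalized counts, picks that of the highest replicate Jaccard index after loess smoothing (span 0.3), and keeps a gene that exceeds it in at least 1 library. The threshold was 89.6 in the fit of the 6 WT libraries without cytokine (Tnv, Tcm, Tem), which share 1 spread estimate, and 85.0 in the fits of 12 libraries for genotypes and cultures. Calls needed more than 1.5-fold and a Benjamini-Hochberg adjusted p under 0.05. Standard errors are of log2 fold changes. Depth limits genes near 0 counts, for which ratios carry 95% counting intervals that leave out all other error.

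Labels give replicate numbers 1 and 2 in each group and no batch. Same-numbered libraries deviated together, with correlations across genes of 0.53 to 0.70 in the 3 pairs of WT states without cytokine. The numbers were thus taken to pair the samples there, on the data and not on the labels. Calls and adjusted p values given without mention of the block are from the fit without it, which leaves this pairing out. A gene not called there may pass in the blocked fit, which called 782 genes against 278. Blocked values are printed for some of the genes and lists whose calls they change, not for all. Replicates differed beyond sampling noise in every group (chi-square per degree of freedom 7.41 to 93.2).

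Named genes were the sort and targeted genes, in each direction the 12 with the largest fold change among called genes averaging 50 or more normalized counts whose groups did not overlap, and up to 5 called genes per list and direction. Cxcr5, Itgb1 and genes called only with the block were named after their values were seen. Some genes that met the rule are not reported here. Lists and members were chosen with earlier results of these data known. Gene positions are from GENCODE vM21 (GRCm38), which held 23142 of the 24309 symbols. No mitochondrially encoded gene of the list was in the table, and erythroid markers were too low to be tested. Alternatives were filterByExpr or no filter, DESeq2 1.42.0 or its size factors, edgeR's newer form, other sets of libraries, a replicate block, Bonferroni adjustment, 2-fold, and leaving out each library.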

Additional observations from a re-analysis of the deposited data

Results flagged for a closer look

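Tcm over Tnv of WT cells differed between the IL-7 cultures and the cells without cytokine, by a test of the difference itself (edgeR quasi-likelihood interaction, Benjamini-Hochberg), for 106 genes. By fold change 3 genes led in each direction. Lcn2, Retnlg and Mmp8, which are genes of neutrophils, had differences of 12.66, 11.40 and 10.96 on the log2 scale. All 3 had 0 counts in both Tnv libraries with IL-7, so these sizes depend on the prior count of the fit and are no bound, and Lcn2 was at 66.6 and 37.5 CPM in Tcm with IL-7. Myeloid markers moved with them, as given above. In the other direction 2410017I17Rik, Slc6a19 and Gm14085 had differences of -9.37, -5.10 and -4.45. 2410017I17Rik stood at 19.8 and 18.8 CPM in Tnv with IL-7 and at 0 and 0.098 CPM in Tcm with IL-7, and in the BBA libraries without cytokine at 5.79 to 14.0 CPM in both states. Gm14085 stood at 85.1 and 313 CPM in Tnv with IL-7, and at 82.8 and 62.7 CPM in BBA replicate 1 of Tcm and Tnv against 7.80 and 7.96 CPM in BBA replicate 2. The IL-7 libraries were of the other sex, and the cause of these differences was not tested.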

How the results depend on the processing

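The 278 calls of Tcm over Tnv in WT without cytokine were 316 with filterByExpr, 280 with DESeq2 size factors and 276 with edgeR's newer form, but 873 with no filter, 481 with DESeq2, 782 with the replicate block, 129 with all 16 WT libraries and 22 with Bonferroni adjustment, all 22 higher. None of the 78 called genes named here changed direction in an alternative that tested it. For genes called in neither fit, direction was not followed. In AAB (424) they were 801 with no filter, 663 with the replicate block, 55 with Bonferroni adjustment, 255 over 2-fold and 267 in a fit of 48 libraries, and in BBA (282) they were 632, 517, 23, 178 and 144, with 428 by DESeq2. The differences of AAB and BBA from WT (0 and 0) were 8 and 40 with no filter and 2 and 10 by DESeq2. With IL-7 (2459) Bonferroni adjustment left 98 and 2-fold 1248. With IL-15 (680) no filter gave 1401, Bonferroni adjustment 34 and 2-fold 355. The difference of IL-7 from no cytokine (106) was 960 with no filter, 416 by DESeq2, 161 with the replicate block, 10 with Bonferroni adjustment and 324 in the fit of 48 libraries, and that of IL-15 (0) was 308 with no filter, 100 by DESeq2 and 48 in the fit of 48. Leaving out 1 library gave 69 to 559 calls in WT, 146 to 277 in AAB, 71 to 296 in BBA, 967 to 3932 with IL-7, 113 to 550 with IL-15, 16 to 1987 for the IL-7 difference and 0 to 11 for the IL-15 difference. A lone library is then assumed to vary like the other groups. In the fits of 12 libraries the numbers did not pair all groups (correlations of -0.27 to 0.58 across cultures, and 3 of 15 pairs under 0.1 across genotypes), so their blocked counts stand here only. The causes of these changes were not tested, and with 2 libraries a group small differences may be missed.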
